A study of Mus musculus with 6 samples.

Results

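The BCL2 family decides whether the outer membrane of the mitochondrion is opened in a dying cell. Bax and Bak1 encode the effectors that form the pore. Pro-survival members, here Bcl2, Bcl2l1 (which encodes BCL-xL) and Mcl1, bind and restrain them, and BH3-only members such as Bbc3 (PUMA), Pmaip1 (NOXA), Bcl2l11 (BIM), Bad and Bid relay stress by blocking the pro-survival proteins or activating the effectors. In melanocytes and melanoma the family is known for high dependence on survival members, and several of its genes are under the control of p53, of the stress factors ATF4 and CHOP, and of the lineage factor MITF.

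These 10 genes were taken by symbol from a table of 14883 genes, and all 10 were present. They were compared between 3 static and 3 stretched samples of B16F10luc2, a mouse melanoma cell line, grown on elastic culture plates in DMEM with serum at standard oxygen. Stretched cells were under cyclic stretch for 24 h (15% equibiaxial elongation, the plate stretching equally along both axes, 15 times a minute), and static cells stayed on the same kind of plate without stretch. All samples are of 1 cell line, and the labels do not state whether replicates were separate cultures, so the p-values reflect only how these libraries vary, possibly for technical reasons. The question was how expression in melanoma cells differs under stretch, and mRNA levels say nothing of the phosphorylation, cleavage and turnover that also regulate these proteins.

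Total counts per library ran from 19469286 to 36351400. All 7 melanocyte markers were in the table, with a summed level of 22410 to 24790 CPM (each count relative to its library total after TMM scaling) in static and 19860 to 20450 CPM in stretched samples. Of markers of leukocytes, endothelium and epithelium 1 of 5, 1 of 4 and 1 of 4 were in the table, each summing to at most 1.33 CPM in any sample. Fibroblast markers (4 of 5) summed to 13.0 to 17.9 CPM in static and 15.7 to 17.2 CPM in stretched samples.

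Promoter windows ran from 250 bases before to 50 after an annotated start, from RefSeq on GRCm38.p6. They were taken for 9 of the 10 members, 15 windows in all. Pmaip1 was left out of these windows, and its promoter is not described here. Windows are shown for the 4 members with the largest falls, Bbc3, Bad, Bcl2l1 and Bax, and for Bcl2l11, the remaining member with a match. Letters are 5′ to 3′ on the strand of the gene, and capitals mark a match to 1 of 6 motifs searched on both strands.
Bbc3, chr7:16310181-16310480 (+): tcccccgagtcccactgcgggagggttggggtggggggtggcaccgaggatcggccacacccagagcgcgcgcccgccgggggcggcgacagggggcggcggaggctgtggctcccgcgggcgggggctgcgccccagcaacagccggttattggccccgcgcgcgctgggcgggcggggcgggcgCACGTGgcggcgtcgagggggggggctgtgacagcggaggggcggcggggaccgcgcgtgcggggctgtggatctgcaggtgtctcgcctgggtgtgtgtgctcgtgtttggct
Bad, chr19:6941611-6941910 (+): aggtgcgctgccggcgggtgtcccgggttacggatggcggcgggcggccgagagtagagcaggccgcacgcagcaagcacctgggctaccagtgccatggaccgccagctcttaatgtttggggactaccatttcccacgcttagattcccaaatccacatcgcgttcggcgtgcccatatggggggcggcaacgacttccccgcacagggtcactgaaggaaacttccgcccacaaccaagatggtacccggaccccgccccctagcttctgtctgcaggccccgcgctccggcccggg
Bcl2l1, chr2:152831679-152831978 (-): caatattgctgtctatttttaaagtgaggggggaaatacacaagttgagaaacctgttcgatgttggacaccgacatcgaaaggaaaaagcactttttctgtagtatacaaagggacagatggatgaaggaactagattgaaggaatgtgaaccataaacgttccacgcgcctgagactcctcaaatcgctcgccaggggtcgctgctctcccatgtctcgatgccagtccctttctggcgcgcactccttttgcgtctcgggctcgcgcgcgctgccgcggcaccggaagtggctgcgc
Bax, chr7:45466849-45467148 (-): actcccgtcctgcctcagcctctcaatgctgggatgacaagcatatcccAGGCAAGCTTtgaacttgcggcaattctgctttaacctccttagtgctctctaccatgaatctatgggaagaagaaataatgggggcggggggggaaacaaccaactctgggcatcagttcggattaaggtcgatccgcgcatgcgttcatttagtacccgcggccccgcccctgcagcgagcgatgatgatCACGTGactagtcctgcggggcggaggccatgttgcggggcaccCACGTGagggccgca
Bcl2l11, chr2:128125788-128126087 (+): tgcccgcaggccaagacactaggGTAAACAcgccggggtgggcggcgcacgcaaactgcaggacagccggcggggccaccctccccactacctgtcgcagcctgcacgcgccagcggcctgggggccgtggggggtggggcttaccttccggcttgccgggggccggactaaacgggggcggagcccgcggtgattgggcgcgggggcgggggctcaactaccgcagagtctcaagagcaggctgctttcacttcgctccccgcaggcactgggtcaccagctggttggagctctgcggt

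In the Bax window the E-box CACGTG, a site type read by MYC and MITF family factors, occurred at bases 242 and 286, counted from 1 at the first base of the window. A p53 decamer started at base 50 of that window. The Bbc3 window held 1 E-box, at base 187, and another Bbc3 window, which overlaps this one, held the FOXO motif GTAAACA. Bcl2l11 held the same FOXO motif, at base 24. Of the 32851 promoter windows of this length that were searched, 7.15% held the E-box, 8.36% the p53 decamer and 3.65% the FOXO motif. The other motifs searched, CARE (TGATGNAA, 3.97% of windows), M-box (TCATGTG, 3.77%) and AP-1 (TGANTCA, 7.81%), had no match in the 15 windows, and no motif contains another. A match describes letters and not a bound site. The windows differed in base composition, with 52.3% GC in the Bcl2l1 window shown and 78.0% in that of Bbc3, against a median of 52.7% over all windows.

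Of the 7 death genes, among them Pmaip1, which was not tested, 4 fell under stretch, and of the 3 survival genes 1 fell. Bbc3 fell by 37.1%, Bad fell by 25.9% and Bcl2l1 fell by 25.5%. Both effectors fell less: Bax fell by 12.2% and Bak1 fell by 8.10%. Their calls were lost with an offset for GC content and transcript length. Bcl2, Mcl1, Bcl2l11 and Bid did not pass the test. Of the 9 members with enough counts to be tested, 5 fell and none rose at an adjusted p under 0.05 (edgeR's quasi-likelihood test, Benjamini-Hochberg over all tested genes). At an unadjusted p under 0.05 the number higher was 1, and it was 0 in DESeq2 and in limma-voom. Over all 12377 tested genes 50.9% were called, 25.9% lower and 24.9% higher, so the share of members called is near the background. The members' median log2 fold change was -0.15, against 0.00377 for all tested genes. Against a null of 1.2-fold (glmTreat), Bbc3, Bad and Bcl2l1 stayed called, 3 of 9, all lower, where 12.9% of all genes were called and 7.38% were called lower.

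**Figure D1:**
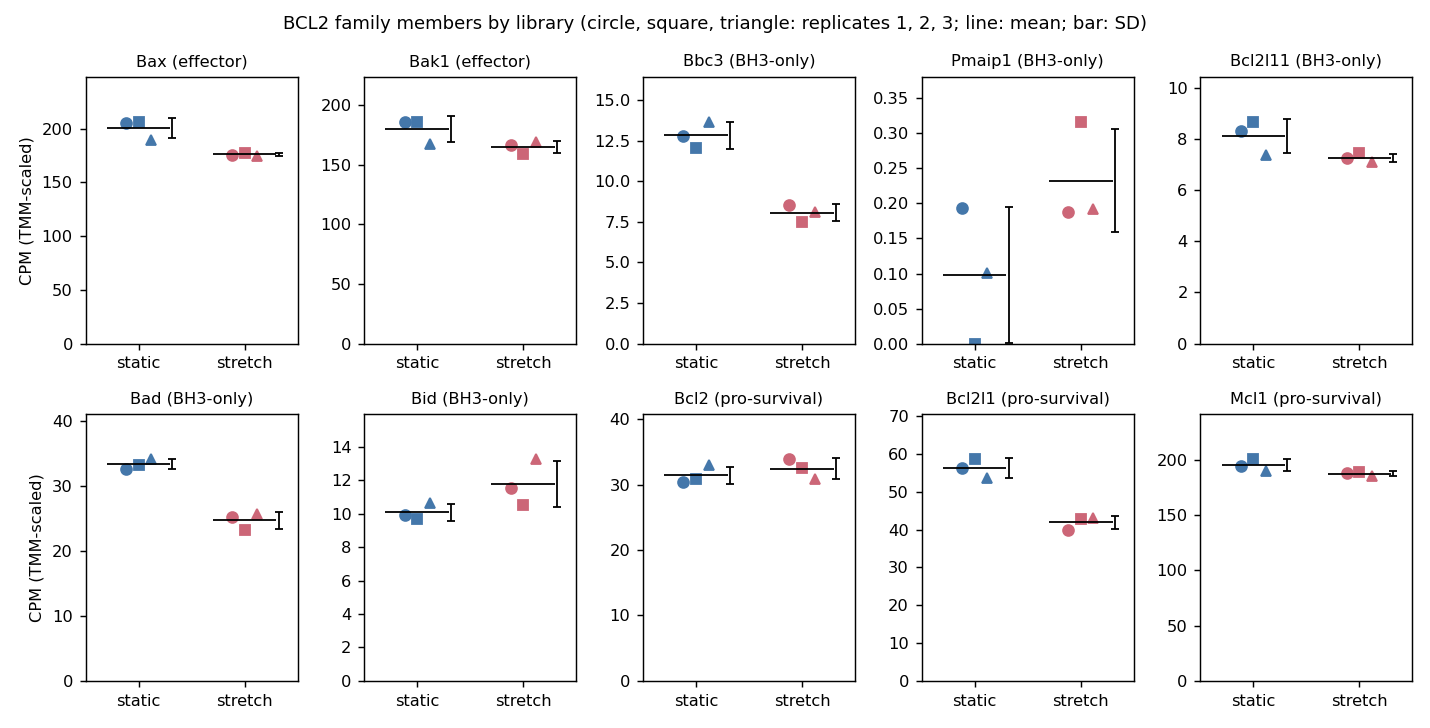
CPM of each member in the 3 static (blue) and 3 stretched (red) libraries, with a separate linear axis from 0 in each panel; lines are means and bars are SD (n = 3). Static and stretched points of Bbc3, Bad, Bcl2l1, Bax and Mcl1 do not overlap, and those of the other members do.

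Levels between genes were compared per kilobase, as CPM divided by the length of the longest GENCODE M21 transcript, which is only a guide where cells use shorter forms. Bax stood highest in static cells, at 182 ± 8.56 CPM per kb (mean ± SD, n = 3), before Bak1 at 75.3 ± 4.58 and Mcl1 at 57.1 ± 1.58 CPM per kb. Bcl2l1 (21.9 ± 1.01) and Bad (21.7 ± 0.495 CPM per kb) did not differ beyond their spread. Bbc3 followed at 7.07 ± 0.459 CPM per kb. Bcl2 (4.37 ± 0.186) and Bid (4.17 ± 0.205 CPM per kb) again lay within their spread, Bcl2l11 was at 1.61 ± 0.132 and Pmaip1 at 0.0360 ± 0.0355 CPM per kb. Under stretch the order of the first 3 was kept, at 159.9 ± 1.36, 69.1 ± 2.21 and 54.9 ± 0.574 CPM per kb. Bid (4.88 ± 0.573), Bcl2 (4.51 ± 0.219) and Bbc3 (4.44 ± 0.285 CPM per kb) were then within their spread of each other. The static Bbc3 level had been above both.

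Summed per kilobase, the effectors made up 68.6% ± 0.939 of the 10 genes' level in static and 69.05% ± 0.0947 in stretched libraries. Pro-survival genes made up 22.2% ± 0.394 and 22.8% ± 0.338, and BH3-only genes 9.23% ± 0.618 and 8.12% ± 0.427. For BH3-only genes the static libraries held 8.95%, 8.81% and 9.94% and the stretched ones 8.27%, 7.64% and 8.45%, so all static values lay above all stretched ones. Pro-survival shares were 21.8%, 22.3% and 22.6% in static and 22.7%, 23.2% and 22.6% in stretched libraries. All stretched values lay above all static ones, the nearest pair at 22.59% and 22.56%. These shares are not corrected for GC content and length. With an offset for both, log2 fold changes were -0.05 for Bax, -0.03 for Bak1, -0.34 for Bcl2l1, -0.05 for Mcl1 and -0.03 for Bcl2. Shares were not computed with that offset, so whether the pro-survival share rises there was not tested.

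The effectors were the most abundant death genes. Bax (Entrez Gene 12028; chromosome 7, 45461695 to 45466903 in GRCm38.p6) was at 205, 206 and 189.6 CPM in static replicates 1, 2 and 3 and at 176, 178 and 175 CPM in the stretched ones. Every stretched library lay below every static one. Its log2 fold change was -0.19 (SE 0.039, adjusted p = 0.00105 in edgeR). Bak1 (Entrez Gene 12018; chromosome 17, 27019812 to 27028627) was at 186, 186 and 167 CPM in static and 166, 159 and 169.5 CPM in stretched libraries. Here static replicate 3 lay among the stretched libraries. The log2 fold change of Bak1 was -0.12 (SE 0.045, adjusted p = 0.0343 in edgeR).

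Both effector calls were lost with an offset for GC content and transcript length, where the log2 fold changes were -0.05 for Bax (adjusted p = 0.472, edgeR) and -0.03 for Bak1 (adjusted p = 0.615, edgeR). Bak1 was called in 8 of 17 alternatives and also lost its call (edgeR) without static replicate 1 (adjusted p = 0.155), static replicate 2 (0.0708), stretch replicate 1 (0.0814) or stretch replicate 2 (0.150).

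Among BH3-only genes, Bbc3 (Entrez Gene 170770; chromosome 7, 16308398 to 16318334) encodes PUMA, which binds all the main pro-survival proteins and is a classic p53 target. Its level was 12.8, 12.0 and 13.7 CPM in static and 8.55, 7.52 and 8.10 CPM in stretched libraries, with a gap between the groups. It had the largest change of the 9 tested members, a log2 fold change of -0.67 (SE 0.083, 95% interval -0.85 to -0.49, adjusted p = 1.11e-05 in edgeR). In size this was at the 94.0th percentile of all tested genes. With the GC and length offset the fold change was -0.46 on the log2 scale (adjusted p = 0.000156, edgeR).

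Bad (Entrez Gene 12015; chromosome 19, 6941861 to 6951905) encodes a BH3-only protein that is held inactive by phosphorylation from growth factor signalling and binds BCL-xL and BCL2. Static libraries had 32.6, 33.2 and 34.1 CPM and stretched ones 25.2, 23.1 and 25.6 CPM, again without overlap. The log2 fold change was -0.43 (SE 0.054, 95% interval -0.55 to -0.32, adjusted p = 1.10e-05 in edgeR). Gpr137 lies on the opposite strand and overlaps the span of Bad. It was at 21.1 ± 0.953 CPM in static and 18.1 ± 0.933 CPM in stretched libraries, a log2 fold change of -0.22. Without known strand, reads of the shared part cannot be told apart. The same limit holds for Bak1, whose span overlaps Ggnbp1 on the opposite strand. Mir3473f overlaps the span of Bcl2 on the same strand.

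Bid (Entrez Gene 12122; chromosome 6, 120893119 to 120917062) links death receptors to mitochondria once caspase-8 has cut it. It was at 9.92, 9.69 and 10.6 CPM in static and 11.6, 10.5 and 13.3 CPM in stretched libraries, and stretch replicate 2 lay within the static range. The log2 fold change of 0.22 (SE 0.090, 95% interval 0.02 to 0.41) had an unadjusted p of 0.0297 and missed the threshold after adjustment (adjusted p = 0.0572, edgeR). It passed in 8 of 17 alternatives, among them those without static replicate 3 (adjusted p = 0.0380, edgeR) or without stretch replicate 2 (0.0274), with adjusted p from 0.0228 to 1 over all of them.

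Bcl2l11 (Entrez Gene 12125; chromosome 2, 128126038 to 128162547) encodes BIM, a strong activator of BAX and BAK that FOXO factors induce and ERK signalling destabilises. Static libraries had 8.29, 8.67 and 7.38 CPM and stretched ones 7.23, 7.43 and 7.10 CPM, and static replicate 3 lay within the stretched range. Its log2 fold change of -0.15 (95% interval -0.35 to 0.04, adjusted p = 0.183 in edgeR) was not called in any of the 17 alternatives.

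Pmaip1 (Entrez Gene 58801; chromosome 18, 66458604 to 66465558), whose protein NOXA binds chiefly MCL1, was nearly silent. It had 5, 0 and 3 counts in static and 7, 7 and 4 counts in stretched libraries, too few for the filter, and was not tested. Summed counts of 8 and 18 gave a stretched to static ratio of 2.09 after scaling, with an exact 95% interval of 0.864 to 5.55 that covers counting error only and includes no change.

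Of the pro-survival genes 1 of 3 fell. Bcl2l1 (Entrez Gene 12048; chromosome 2, 152758732 to 152833803) was at 56.4, 58.7 and 53.5 CPM in static and 39.9, 42.9 and 43.0 CPM in stretched libraries. The groups were well apart, and the log2 fold change was -0.42 (SE 0.048, 95% interval -0.53 to -0.32, adjusted p = 4.68e-06 in edgeR), the lowest p among the members. Counts per gene do not separate the long and short splice forms of Bcl2l1, whose proteins have opposite effects. The calls of Bbc3, Bad and Bcl2l1 held in all 17 alternatives, with log2 fold changes of -0.72 to -0.46, -0.48 to -0.35 and -0.46 to -0.34.

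Bcl2 (Entrez Gene 12043; chromosome 1, 106538176 to 106714290), the founding survival gene and a known MITF target in melanocytes, was at 30.4, 30.9 and 32.9 CPM in static and 33.9, 32.6 and 30.8 CPM in stretched libraries. These ranges overlap almost fully. The log2 fold change was 0.05 (95% interval -0.07 to 0.17, adjusted p = 0.463 in edgeR), and -0.03 with the GC and length offset. Mcl1 (Entrez Gene 17210; chromosome 3, 95656944 to 95663179), which encodes a short-lived survival protein, was at 195, 201 and 190.1 CPM in static and 188, 189 and 185 CPM in stretched libraries. All stretched values were lower, but the log2 fold change was -0.06 (95% interval -0.13 to 0.02, adjusted p = 0.195 in edgeR), and its sign turned with scaling by library size alone (0.00407). The intervals of Bcl2 and Mcl1 thus leave out a fall as large as that of Bcl2l1.

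Without overlap between groups were 5 members, Bax, Bbc3, Bad, Bcl2l1 and Mcl1, all lower, where 29.4% of all tested genes lay apart and lower, 29% apart and higher and 58.5% apart in either direction.

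**Figure D2:**
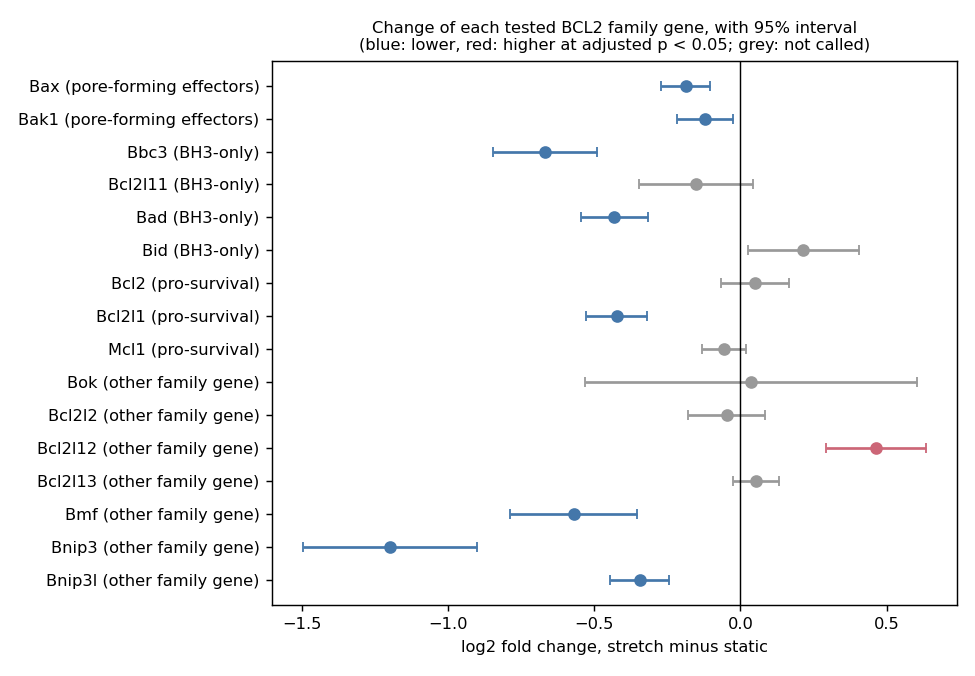
Log2 fold change (x axis, stretch minus static) of each tested BCL2 family gene with its 95% interval from edgeR; colour gives the call at an adjusted p under 0.05. Bbc3, Bad and Bcl2l1 lie between -0.67 and -0.42, and the intervals of Bcl2 and Mcl1 include 0.

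Ratios between members within a library do not depend on how libraries were scaled. They are given as values, since an exact test of 3 against 3 cannot go below p = 0.1. Bax to Bcl2, a ratio often read as a balance of death and survival, was 6.76, 6.68 and 5.76 in static and 5.18, 5.45 and 5.67 in stretched libraries, lower in every stretched one, with a mean at 84.9% of the static mean. Against Bcl2l1 the direction was the opposite. Bax to Bcl2l1 was 3.64, 3.52 and 3.54 in static and 4.40, 4.14 and 4.06 in stretched libraries, or 117.7% of the static mean. Bak1 to Bcl2l1 went the same way, from 3.196 ± 0.0883 to 3.94 ± 0.228, also without overlap. The direction of the Bax ratio of counts thus depended on whether Bcl2 or Bcl2l1 was the denominator. Ratios of counts are not corrected for GC content and length. With that offset the log2 fold changes were -0.05 for Bax (SE 0.0486), -0.03 for Bcl2 (SE 0.0497) and -0.34 for Bcl2l1 (SE 0.0519). Bax and Bcl2 then differed by less than either SE, so the fall of their ratio did not hold there.

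BH3-only genes against survival genes overlapped between groups in each ratio computed other than that of Pmaip1. Bad to Bcl2l1 was 0.593 ± 0.0385 in static and 0.589 ± 0.0470 in stretched libraries. Bbc3 to Bcl2l1 was 0.229 ± 0.0255 and 0.193 ± 0.0199, Bcl2l11 to Mcl1 was 0.0415 ± 0.00236 and 0.0387 ± 0.000527, and Bcl2l11 to Bcl2 was 0.259 ± 0.0305 and 0.224 ± 0.00934. Bid to Mcl1 was 0.0517 ± 0.00393 and 0.0630 ± 0.00806, and Bak1 to Mcl1 was 0.920 ± 0.0378 and 0.880 ± 0.0366. Pmaip1 to Mcl1 rested on at most 7 counts of Pmaip1 per library, at 0.000508 ± 0.000498 and 0.00124 ± 0.000381.

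**Figure D3:**
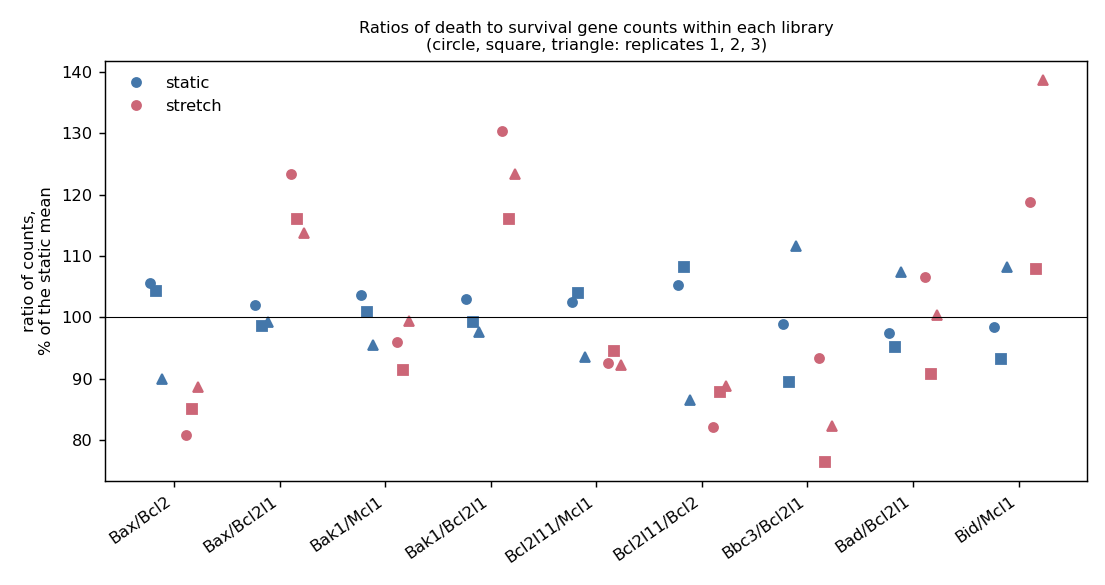
Ratios of counts within each library, as a percentage of the static mean (y axis), for 9 pairs of a death gene and a survival gene; blue is static, red is stretch, and symbols are replicates. Bax to Bcl2 sits lower and both effector to Bcl2l1 ratios sit higher in all stretched libraries.

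Of 15 other BCL2 family genes listed, 8 were in the table and 7 were tested, and 3 fell and 1 rose, a share called near the 50.9% of all tested genes. Bnip3, a mitophagy receptor gene induced by low oxygen, was at 31.4, 47.8 and 29.5 CPM in static and 15.8, 14.5 and 15.9 CPM in stretched libraries. It was 2.30-fold lower (adjusted p = 5.34e-06, edgeR), although static replicate 2 stood apart, and its log2 fold change of -1.20 was -0.97 without that library. Bnip3l, its close relative, fell from 69.3 ± 3.78 to 54.5 ± 2.37 CPM. Bmf, a BH3-only gene whose protein is tethered to the actin and myosin V motor through dynein light chain and is released on loss of attachment, fell from 9.36 ± 0.658 to 6.18 ± 0.733 CPM (log2 fold change -0.57, SE 0.10, adjusted p = 0.000288 in edgeR). Its libraries did not overlap, at 9.96, 9.47 and 8.66 against 6.88, 6.25 and 5.42 CPM.

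Bcl2l12, which encodes an atypical family protein linked to p53 and caspase inhibition, was the gene that rose, from 9.01 ± 0.301 to 12.4 ± 0.916 CPM (log2 fold change 0.46, SE 0.081, adjusted p = 0.000230 in edgeR). Bcl2l2, the survival gene of BCL-w, was at 26.2 ± 2.16 and 25.6 ± 0.618 CPM, Bcl2l13, a mitophagy receptor gene, at 160.4 ± 4.99 and 166 ± 2.51 CPM, and Bok, an effector relative, at 0.632 ± 0.0105 and 0.642 ± 0.0579 CPM. None of these passed the test. Bik, a BH3-only gene, had at most 4 counts in any library and was not tested, and the remaining 7 genes of the list, 3 of them Bcl2a1 copies, were not analysed here.

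Downstream of the mitochondrial pore, 7 of 18 genes of the apoptosome, caspase and inhibitor of apoptosis list rose and none fell (0 also at an unadjusted p under 0.05 in edgeR, in DESeq2 and in limma-voom), with a median log2 fold change of 0.10. Over all tested genes 24.9% rose and 25.9% fell. Birc5, which encodes survivin, an inhibitor of apoptosis protein that also works in mitosis, rose from 116 ± 2.87 to 154 ± 1.71 CPM. Aifm1, the gene of apoptosis-inducing factor, which also supports respiratory chain assembly, rose from 49.3 ± 2.04 to 60.9 ± 0.688 CPM. Cycs, the gene of cytochrome c, rose 1.18-fold from 375 ± 3.86 CPM. Chosen after their values were seen as the core of the apoptosome, Apaf1 and Casp9 had log2 fold changes of 0.08 and 0.03 and were not called (adjusted p = 0.0847 and 0.643, edgeR).

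In the death receptor list 3 of 9 tested genes fell and none rose (0 also at an unadjusted p under 0.05, in DESeq2 and in limma-voom), with a median of -0.10, where 25.9% of all tested genes fell and 24.9% rose. Fas and Ripk3, also on this list, were not in the table. Tnfrsf1a, the main TNF receptor gene, fell from 124 ± 4.20 to 92.6 ± 0.767 CPM. Ripk1, a kinase gene at the fork between survival and death signals, fell 1.17-fold. Mlkl, the gene of the pore protein of necroptosis, fell 1.10-fold and lost its call without stretch replicate 1 (adjusted p = 0.0778, edgeR), without stretch replicate 2 (0.0516) and under scaling by library size alone (0.140).

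The list of transcription factors known to act on family genes had 7 lower and 2 higher of 12 tested, with a median of -0.17, against 25.9% lower and 24.9% higher of all tested genes. Ddit3, which encodes CHOP, an inducer of Bcl2l11 and Bbc3 under endoplasmic reticulum stress, was at 97.1, 84.0 and 96.7 CPM in static and 41.0, 39.3 and 38.6 CPM in stretched libraries, 2.34-fold lower (adjusted p = 3.27e-10, edgeR). Atf4, which acts upstream of Ddit3, fell from 600 ± 20.1 to 357 ± 4.53 CPM. Trp53, the p53 gene, was at 197, 184 and 182 CPM in static and 166, 168 and 162 CPM in stretched libraries and fell by 12.0% (adjusted p = 0.00114, edgeR), although the mRNA says little of p53 activity. Myc rose 1.51-fold. Mitf was at 314, 340 and 322 CPM in static and 422, 416 and 427 CPM in stretched libraries, a rise of 1.30-fold. Bcl2 did not pass the test, and a link between the levels of Mitf and Bcl2 was not tested.

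Of 20 genes of protein partners and modifiers of the members 7 fell and 3 rose, with a median of -0.00441, a share called like the 50.9% of all tested genes. Dynll2, the light chain gene whose protein holds BMF, fell from 253 ± 4.86 to 203 ± 3.08 CPM. Bag3, a co-chaperone gene of BCL2 family proteins, fell 1.25-fold, and Tpt1, whose protein binds MCL1, fell 1.21-fold. Vdac2, which encodes a mitochondrial channel that recruits BAK, rose from 211 ± 7.45 to 229 ± 2.69 CPM. The Vdac2 call was lost after the offset for GC content and length (adjusted p = 0.0681, edgeR), without static replicate 1 (0.101) or without stretch replicate 2 (0.0670). In this list 8 genes were higher under library size scaling, and 1 was when GC content and length were offset.

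**Figure D4:**
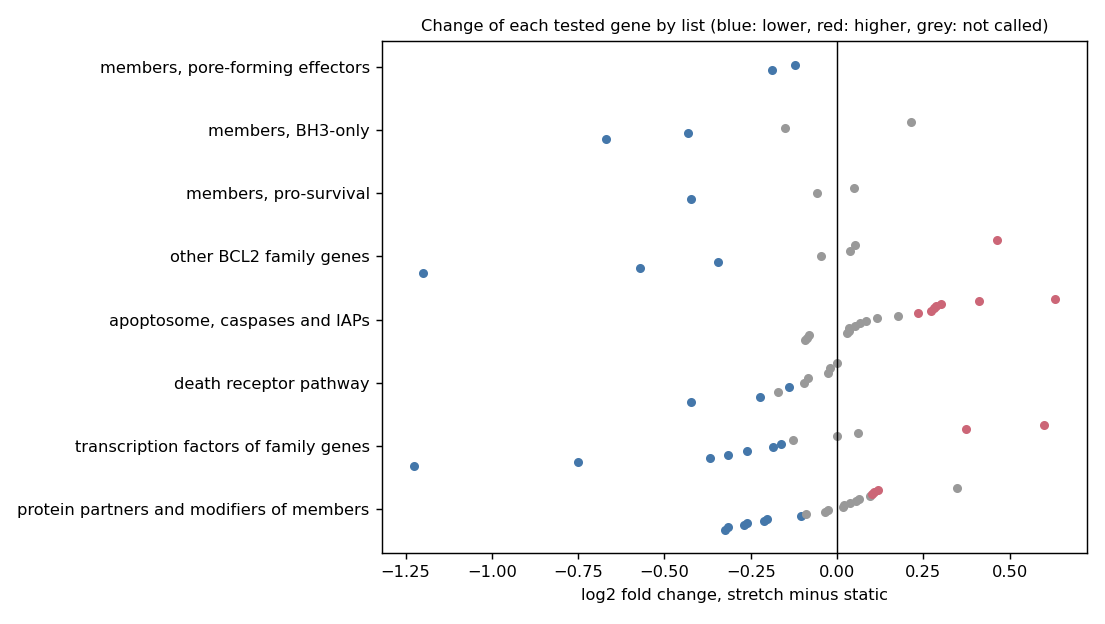
Log2 fold change (x axis, stretch minus static) of each tested gene, by list; every point is 1 gene, spread vertically by rank, and colour gives the call in edgeR. In the apoptosome list the 7 called genes lie to the right of 0, and in the death receptor list the 3 called genes lie to the left.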

How the data were processed

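RNA of 3 static and 3 stretched B16F10luc2 samples was sequenced from libraries made by a standard BGI procedure, per the labels' protocols. The deposited table holds whole-number estimated counts of each gene with no scaling of libraries by the authors. Tools and builds in the submitters' processing notes are Salmon 1.4.0, mm10 and GRCm38, with no role stated. For strand, index and the step to genes, details were not given in the sources used here. Such estimates divide reads among like transcripts by a model, so closely related genes carry added uncertainty. Every gene had at least 10 counts over the 6 libraries.

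Entrez Gene numbers were matched to RefSeq symbols and positions of GRCm38.p6 (14875 of 14883). In edgeR 4.0.16 (R 4.3.3) rounded counts were filtered by filterByExpr (minimum count 10), leaving 12377 genes, scaled by TMM (factors 0.966 to 1.02) and tested with the group alone, two-sided, at an adjusted p under 0.05 over all tested genes. SE and intervals came from the same fit. Depth of 19469286 to 36351400 counts limits precision for genes such as Pmaip1 and Bik. The procedure was tested on simulated counts drawn with the spread of these same libraries. That test cannot speak to variation beyond this spread. Alternatives were other scalings and filters, DESeq2 1.42.0, limma-voom (limma 3.58.1), glmTreat, the replicate number as a block, thinning, an offset for GC content and length (splines with 5 degrees of freedom on the longest GENCODE M21 transcript), and leaving out each library. The members, the lists and the tests were chosen with earlier results of these data known. Named genes were all members, all tested genes of the list of other family genes, in each further list the 3 called genes of lowest p and 1 in the other direction where the first 3 shared 1 direction, and Trp53, Mitf, Ddit3 and Atf4. A search of protein motifs was not made here.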

Additional observations from a re-analysis of the deposited data

How the results depend on the processing

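Bbc3, Bad and Bcl2l1 kept their direction and call in all 17 alternatives; over the 9 tested members, 132 values kept their direction and side of the threshold and 11 lost the call, those of Bax and Bak1. Against 1.2-fold, glmTreat called 1592 genes (679 higher, 913 lower), 3 members (3 lower) and 11 genes of the other lists (other family genes 1 higher and 2 lower, apoptosome 2 higher, death receptor 1 lower, transcription factors 2 higher and 3 lower, partners 0 higher and 0 lower), by its stricter null. With the GC and length offset 3 members were lower and 1 partner gene was higher; the cause was not tested. The 1 member called higher, Bid, passed with upper quartile factors (1 higher; adjusted p = 0.0439, edgeR), library size only (1; 0.0228), at least 5 CPM in 3 libraries (1; 0.0494), thinning (1; 0.0244), the GC and length offset (1; 0.0227) and the replicate block (1; 0.0357). Library size alone moved the median gene by 0.0601 (log2) and the share of higher calls from 49.0% to 63.2%, and called 2 other family genes and 8 partner genes higher. Leaving out each library gave 0 to 1 members higher, 4 to 5 lower, 0 to 4 partner genes higher, and a log2 change of the Pmaip1 to Mcl1 ratio of 0.70 to 2.22. Among the named genes signs turned only where no call was made: Bcl2 (-0.0262) and Bcl2l2 (0.0272) with the offset, Mcl1 (0.00407) and Bcl2l2 (0.0132) with library size, and Bok after thinning (-0.25) and without stretch replicate 1 (-0.00654, up to 0.0935 without other libraries). Same-numbered samples did not deviate together (r of -0.0118, 0.00505 and -0.077 for replicates 1, 2 and 3). With 3 libraries per group this cannot exclude a shared culture day or batch, and the labels give only a number. A replicate block called 5967 genes against 6298, and Bak1 then had an adjusted p of 0.0561 (edgeR). Depth left Pmaip1 and Bik untested.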
